A study of Mesocricetus auratus with 6 samples.

Results

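The genes described here make, attach and remove ISG15, a small ubiquitin-like protein that interferons induce. Of 7 genes listed, 6 had a row in the gene tables of 31593 genes: Isg15 itself, Uba7, Ube2l6, Herc6, Trim25 and Usp18. The ligase Herc5 carried no row under that name and was not analysed here. These genes were chosen by their role in the pathway with the duper over wild-type values of Isg15 and Uba7 already known, so every duper over wild-type value below is a description without a test.

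RNA was sequenced from the cortex, the suprachiasmatic nucleus (SCN, the brain's circadian pacemaker) and the liver of Syrian hamsters (Mesocricetus auratus) at CT15, that is 15 h on the circadian time scale, with 1 deposited library for each genotype and tissue and 6 in all. The duper hamsters, which descended from crosses of the original mutants to the LVG stock and lacked the tau mutation, carry a null allele of Cry1, which encodes a repressor of the circadian clock. The controls were wild-type LVG hamsters. Per the labels and the study's methods, tissue or RNA of 4 hamsters was mixed for every cortex and SCN library, whereas reads from 4 liver libraries of single hamsters were merged for each genotype. The same hamsters gave all 3 tissues, and all animals were reared in a light-dark cycle with free access to food and water. All duper hamsters were female while the wild-type hamsters were of both sexes in equal number, so that genotype and sex are partly confounded and cannot be told apart here. The paper also describes duper as a line bred apart from the Lakeview (LVG) stock. Genotype and breeding line therefore cannot be told apart either.

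ISG15 is conjugated to lysines of target proteins by a cascade like that of ubiquitin. UBA7 is the E1 enzyme that activates ISG15, UBE2L6 is the E2 enzyme that carries it, and HERC5 (HERC6 in mice) and TRIM25 act as E3 ligases. USP18 is the protease that removes ISG15 from its targets, and it also restrains signalling from the type I interferon receptor. All of these genes are known as targets of interferon signalling, and ISG15 is best known in antiviral defence.

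Depth differed greatly between the libraries, from 6788827 estimated counts in wild-type cortex to 85748488 in duper liver. Cry1, the gene disrupted in duper, was lower in duper in each tissue: 8.56 against 33.3 TPM (a level per transcript length, scaled to the library's total) in cortex, 5.44 against 16.8 TPM in liver and 8.14 against 22.9 TPM in SCN. The tissue labels were checked against markers. The cortical neuron list summed to 2328 and 2060 TPM in the cortex libraries against 191 and 179 TPM in SCN and under 1 TPM in liver. Of 8 SCN genes 6 had a row and Avp and Vip had none. Of the 5 tested, Six6 (log2 fold change 4.79), Lhx1 (4.27) and Rgs16 (1.22) were called higher in SCN than in cortex, while Rorb (-0.64) and Nms were not called, and the first 2 were named after their values were seen. Prok2, which was not tested, stood at 0.53 and 0.24 TPM in SCN, no higher than in cortex (0.56 and 0.48 TPM). Albumin, made by hepatocytes, stood in the brain libraries at 0.0391 to 0.104% of its level in liver of the same genotype.

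Isg15, the modifier, was measured at 2.09 TPM in wild-type cortex and 8.14 in duper cortex. In SCN its level was 2.91 TPM in the wild-type library and 17.5 TPM in the duper library, and in liver the 2 levels were 6.05 and 17.7 TPM. Each duper library thus lay above the wild-type library of its tissue, and the lowest duper level (cortex) lay above the highest wild-type level (liver), although the counting intervals of those 2 libraries overlapped. Few reads stood behind the brain levels: 3 estimated counts in wild-type cortex, 18 in duper cortex, 21 in wild-type SCN and 30 in duper SCN, against 119 and 431 in liver. On the log2 scale duper over wild type gave a TPM ratio of 1.55 in liver (95% interval 1.25 to 1.85), 2.59 in SCN (1.74 to 3.47) and 1.96 in cortex (0.18 to 4.37). Intervals of ratios are Clopper-Pearson intervals and intervals of TPM levels are exact Poisson intervals, both from the counts, and they cover counting error only and say nothing of the spread between hamsters. In bulk tissue a lower level per cell and fewer cells of an expressing type cannot be told apart. The 3 intervals overlapped, liver and SCN only at their edges, and the difference in size between tissues was not tested.

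Uba7, the E1 enzyme, followed the same order of libraries as Isg15. It was measured at 4.33 TPM in wild-type and 7.13 in duper cortex, at 4.67 and 8.86 TPM in SCN, and at 6.52 and 14.1 TPM in liver. All 3 duper libraries lay above all 3 wild-type libraries, and the intervals of duper cortex (5.85 to 8.60 TPM) and wild-type liver (6.09 to 6.96 TPM) overlapped. The log2 ratio was 1.11 in liver (1.00 to 1.22), 0.92 in SCN (0.56 to 1.27) and 0.72 in cortex (0.21 to 1.25). Counts were larger than for Isg15, from 47 in wild-type cortex to 2316 in duper liver.

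Ube2l6, the E2 enzyme, was higher in duper in SCN and liver, with too few counts in cortex to give a direction. In liver it was measured at 22.0 TPM in the wild-type and 36.6 TPM in the duper library, and in SCN at 2.63 and 8.86 TPM. In cortex its level was 2.64 TPM in the wild-type and 0.429 TPM in the duper library, which rested on 4 counts and 1 count. The log2 ratio was 1.75 in SCN (0.71 to 2.78) and 0.73 in liver (0.57 to 0.90). The cortex ratio of -2.62 had an interval from -8.24 to 0.72, so that a difference in either direction was not detectable there.

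The ligases differed from each other. Herc6 was low in every library, between 1.58 TPM in wild-type liver and 3.08 TPM in wild-type cortex. In cortex it stood at 3.08 TPM in the wild-type and 2.94 TPM in the duper library, in SCN at 2.23 and 2.86 TPM, and in liver at 1.58 and 2.76 TPM. The log2 ratio was 0.81 in liver (0.60 to 1.02), 0.36 in SCN (-0.16 to 0.85) and -0.07 in cortex (-0.71 to 0.59), so that the interval lay above 0 in liver only.

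Trim25, a ligase that also modifies the viral RNA sensor RIG-I, was the most highly expressed member in both liver libraries. It was measured at 4.96 TPM in wild-type and 5.37 in duper cortex, at 5.69 and 6.67 TPM in SCN, and at 47.9 and 40.4 TPM in liver. The log2 ratio was -0.24 in liver (-0.28 to -0.21), 0.23 in SCN (-0.05 to 0.51) and 0.11 in cortex (-0.29 to 0.52). The liver value depended on scaling: the median log2 ratio of all genes in liver was itself -0.12, and with TMM scaling, which removes such a shift between libraries, the Trim25 ratio was -0.06.

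Usp18, the protease, was measured at 1.42 TPM in wild-type and 1.34 in duper cortex, at 1.54 and 5.66 TPM in SCN, and at 9.26 and 18.5 TPM in liver. Duper lay above wild type in SCN and liver, and the 2 cortex libraries, with 7 and 10 counts, lay within each other's intervals. The log2 ratio was 1.00 in liver (0.86 to 1.13), 1.87 in SCN (1.15 to 2.58) and -0.08 in cortex (-1.63 to 1.55).

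**Figure D1:**
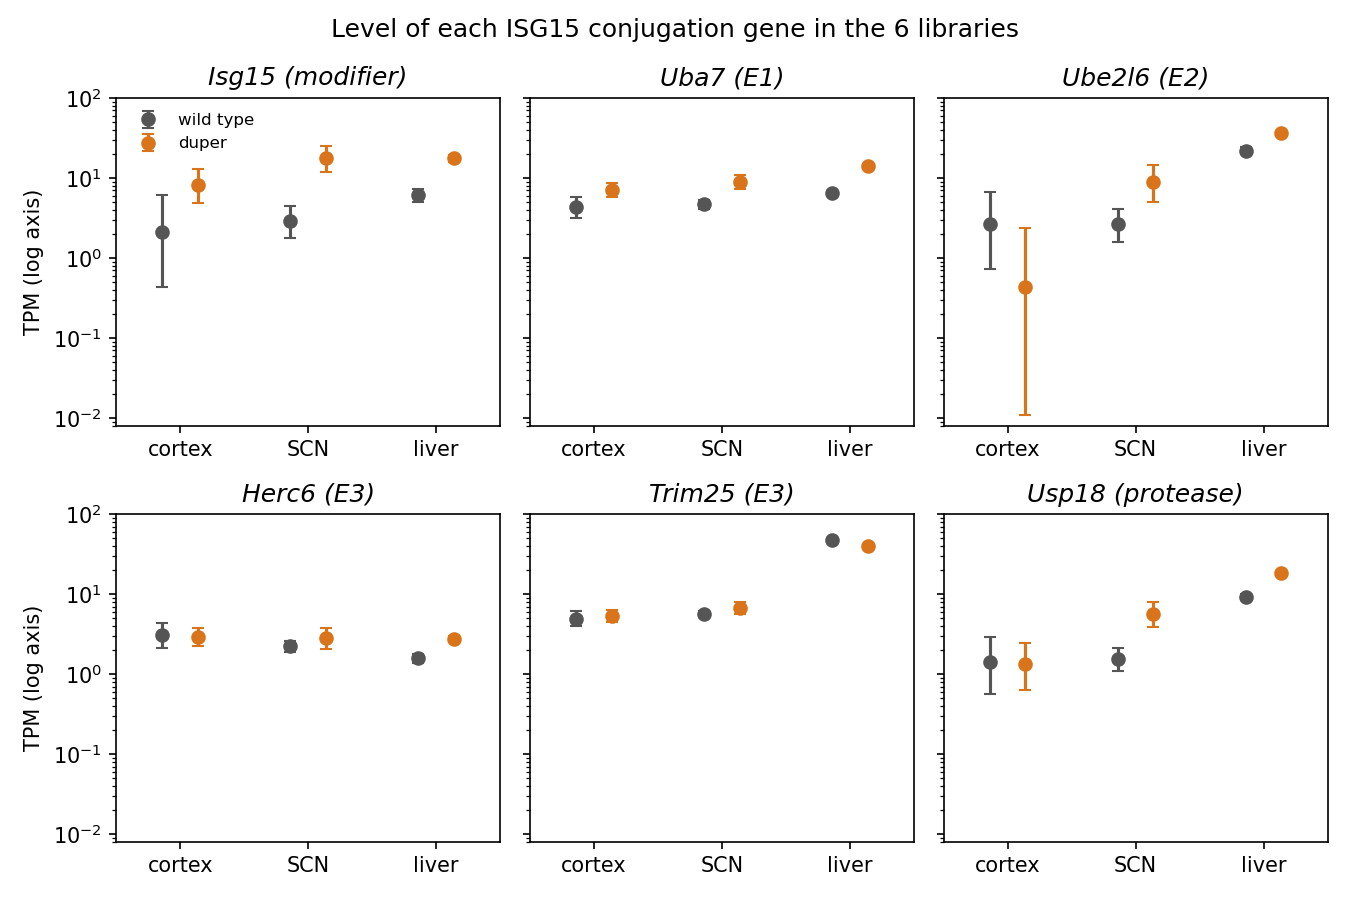
Level of each measured member in TPM (log axis) in the wild-type (grey) and duper (orange) library of each tissue. Points are single libraries and bars are 95% exact Poisson intervals of the count. Isg15 and Uba7 were higher in duper in each tissue, for Isg15 at 8.14 against 2.09 TPM in cortex, 17.5 against 2.91 in SCN and 17.7 against 6.05 in liver, whereas Trim25 ran from 4.96 to 6.67 TPM in brain and from 40.4 to 47.9 TPM in liver.

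Counted over the members, all 6 of which had a mean of at least 1 TPM in each tissue, a log2 ratio over 0.58 (about 1.5-fold) was found for 2 of 6 in cortex, for 4 of 6 in SCN and for 5 of 6 in liver. Among all genes at that level the share past this ratio was 6.48% in liver, 9.08% in SCN and 11% in cortex. Counting intervals lay wholly above 0 for 2 of 6 members in cortex, 4 of 6 in SCN and 5 of 6 in liver, and for 16.3%, 18.9% and 22.9% of all genes at that level with counts in both libraries. The median ratio of the members was 0.90 in liver, 1.34 in SCN and 0.02 in cortex, beside -0.12, 0.02 and 0.03 over all genes. Since Isg15 and Uba7 entered on this contrast, these counts describe the members and are no evidence about them.

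**Figure D2:**
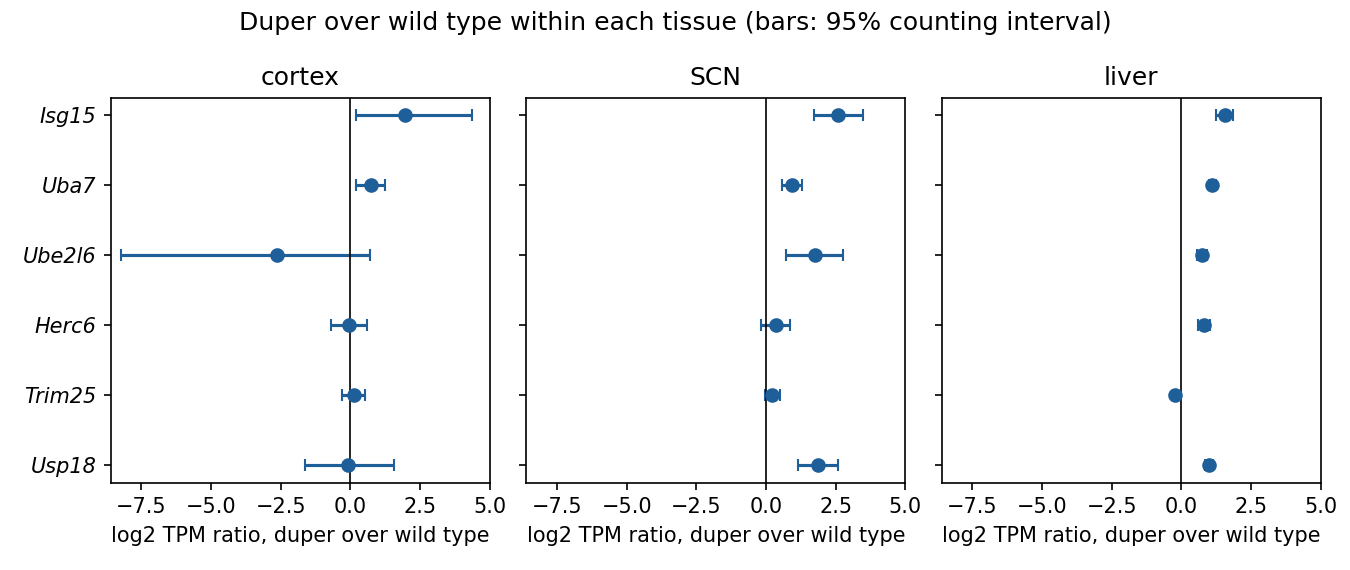
Log2 ratio of TPM, duper over wild type, of each member in cortex, SCN and liver. Points are the ratio of 2 libraries and bars are 95% counting intervals. Isg15 (1.96, 2.59 and 1.55) and Uba7 (0.72, 0.92 and 1.11) lay above 0 with their whole interval in each tissue, and the widest interval was that of Ube2l6 in cortex, from -8.24 to 0.72.

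Fitted over the 3 tissues with edgeR's quasi-likelihood model, which uses the tissues in place of replicates, the log2 fold change of duper over wild type was 2.05 for Isg15 (SE 0.36), 1.22 for Usp18 (SE 0.33), 0.96 for Uba7 (SE 0.18) and 0.91 for Ube2l6 (SE 0.50). It was 0.59 for Herc6 (SE 0.26) and 0.06 for Trim25 (SE 0.12), and the sign of the Trim25 value changed with library size scaling, without the tissue term and without SCN. This fit called 1 gene of 18275, or 0.00547%, and none of the 6 members, with calls made at adjusted p-values below 0.05 and log2 fold changes beyond 0.58 in either direction. At an unadjusted p under 0.05 there were 606 genes. DESeq2, the tool named in the study's methods, called Isg15, among 26 genes higher and 16 lower of 18275. The likelihood ratio test of edgeR called Isg15 and Uba7, among 54 genes higher and 37 lower of 18275. Nothing was read from these calls, since the contrast was used to choose the members.

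The proportions of the pathway's parts differed between libraries. Per unit of Uba7, Isg15 stood at 0.929 in wild-type and 1.26 in duper liver, at 0.623 and 1.98 in SCN, and at 0.483 and 1.14 in cortex, all as ratios of TPM. Per unit of the protease Usp18, Isg15 stood at 0.653 and 0.957 in liver, 1.88 and 3.10 in SCN, and 1.47 and 6.07 in cortex. Both ratios were higher in the duper library of each tissue, with no interval computed for them and with Isg15 and Uba7 chosen on this contrast. In cortex they rest on the few reads of Isg15 and Usp18 given above. In SCN the Isg15 counts were 21 and 30 and the Usp18 counts 38 and 33. There the duper over wild-type intervals of Isg15 (1.74 to 3.47) and Usp18 (1.15 to 2.58) overlapped. The summed level of the 6 members was 93.3 TPM in wild-type and 130.0 in duper liver, 19.7 and 50.4 TPM in SCN, and in cortex 18.5 and 25.4 TPM. Isg15 was the highest member in duper cortex and duper SCN, and Trim25 was the highest in the other 4 libraries.

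Levels between tissues were not used to choose the members and could be tested. Each of the 6 members was higher in liver than in the mean of cortex and SCN by edgeR's quasi-likelihood test with TMM scaling and Benjamini-Hochberg adjustment over 19780 genes. For Ube2l6 the log2 fold change was 5.10 (SE 0.49, adjusted p = 5.72e-05), for Trim25 4.54 (SE 0.12, adjusted p = 1.17e-07) and for Usp18 4.34 (SE 0.31, adjusted p = 1.27e-05). Those 3 formed the upper group. Isg15 rose, with a log2 fold change of 2.50 (SE 0.35, adjusted p = 0.000491) and so did Uba7, with 2.26 (SE 0.18, adjusted p = 2.13e-05). Herc6 had the smallest value, 1.27 (SE 0.26, adjusted p = 0.00373), which was not kept under scaling to library size (0.02, adjusted p = 0.945) and turned to -0.27 on log2(TPM + 1) with limma (adjusted p = 0.263). In TPM Herc6 was no higher in liver (1.58 and 2.76 TPM) than in brain (2.23 to 3.08 TPM).

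The scale moved all genes, not Herc6 alone. Albumin stood at 107273 TPM in wild-type and 112117 in duper liver, and TPM and library size both divide by totals that include it. With TMM scaling the median log2 fold change of all genes was 0.02, and 33.6% of all genes were called higher in liver (6644 higher and 6445 lower). With library size scaling the median was -1.22, with 3108 called higher and 11470 lower, and on log2(TPM + 1) it was -1.07, with 2614 higher and 12647 lower. Relative to the median of all genes Herc6 stood 1.25, 1.24 and 0.80 higher under these 3 scalings, and the other 5 members were called higher in liver under each. The tissue comparison cannot be told apart from pooling, since brain libraries held mixed material and liver libraries were merged reads, nor from depth, which was highest in liver. In thinned counts, with each library at the depth of wild-type cortex, all 6 members were again called higher, beside 5349 of all 17164 genes tested.

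None of the 6 members was called between SCN and cortex by the same fit, in which 10.6% of all genes were called, nor by DESeq2, by the likelihood ratio test or by limma on TPM. Usp18 came nearest by its p, with a log2 fold change of 1.26 (SE 0.50, adjusted p = 0.171), and was the single member at an unadjusted p under 0.05. Isg15 was at 0.84 (SE 0.51, adjusted p = 0.356) and Ube2l6 at 1.91 (SE 0.89, adjusted p = 0.234). Uba7 (0.07, SE 0.24), Herc6 (-0.12, SE 0.34) and Trim25 (0.25, SE 0.16) lay closer to 0, and the first 2 changed sign under another depth or scaling. The Ube2l6 value rested on the cortex libraries, and was 0.25 without duper cortex, the library with a single count, and 4.01 without wild-type cortex. Over the alternatives tried Usp18 ran from 0.32 to 1.87 and Isg15 from 0.36 to 1.13. The standard errors of the 6 members ranged from 0.16 (Trim25) to 0.89 (Ube2l6), so that the size of difference that could be seen differed between them.

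The wild-type libraries alone gave this order of levels. Isg15 did not differ beyond counting error between wild-type cortex and SCN (intervals 0.431 to 6.11 and 1.80 to 4.45 TPM), and wild-type liver lay above both values at 5.01 to 7.24 TPM, with overlap of the cortex interval. Uba7 had the same order, with wild-type liver (6.09 to 6.96 TPM) clear of cortex and SCN. Ube2l6 and Usp18 were alike in wild-type cortex and SCN within their intervals, and both lay well above those levels in wild-type liver. Herc6 ran the other way in TPM: wild-type liver (1.40 to 1.77 TPM) lay below wild-type SCN (1.88 to 2.63 TPM) without overlap, and wild-type cortex was higher at 2.12 to 4.32 TPM. For Trim25 the 4 brain libraries formed an unbroken run of overlapping intervals, far below both liver libraries.

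**Figure D3:**
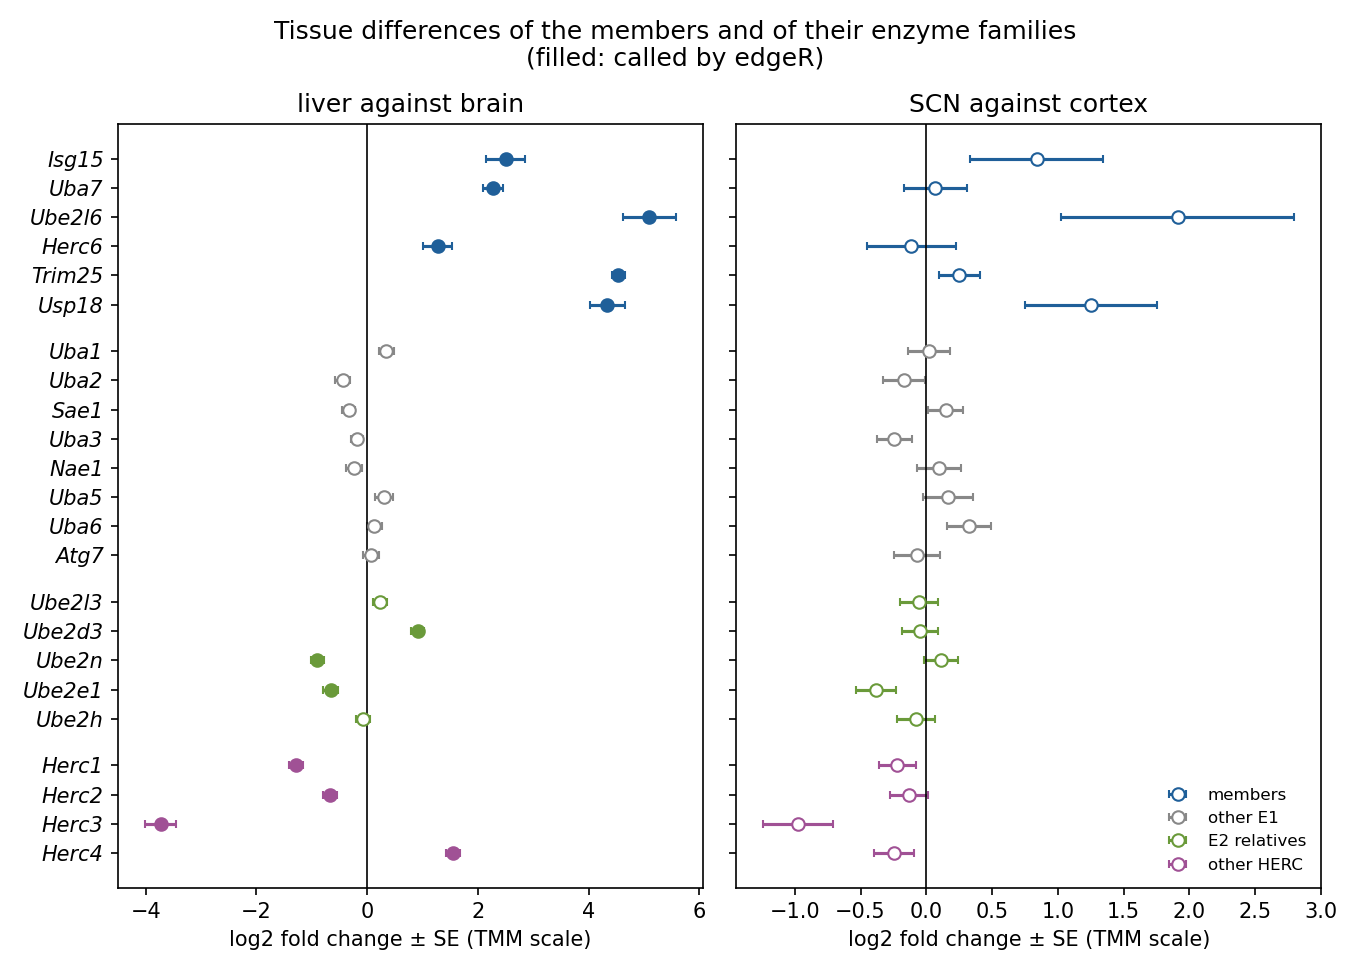
Log2 fold change ± SE on the TMM scale for the 6 members and for relatives of the E1, E2 and HERC enzymes, in liver against brain and in SCN against cortex. Filled points were called by edgeR and open points were not. The members ran from 1.27 (Herc6, whose sign turned on the TPM scale) to 5.10 (Ube2l6) in liver against brain, while the other E1 enzymes were uncalled on this scale (all 8 called lower on library size) and no gene shown was called in SCN against cortex.

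The enzyme families of the members were set beside them. The other 8 E1 enzymes, which activate ubiquitin, SUMO, NEDD8, UFM1 or the autophagy modifiers, had no log2 ratio beyond 0.58 in either direction in any tissue, and their median ratios were 0.21 in cortex, -0.00 in SCN and 0.05 in liver. None of the 8 was called in liver against brain by edgeR with TMM scaling, where their median was -0.05, and all 8 were called lower with library size scaling, where their median was -1.30 beside -1.22 over all genes. Uba1, Sae1 and Uba3, the most abundant, had log2 fold changes of 0.35, -0.34 and -0.18 on the TMM scale, against 2.26 for Uba7. Of 5 relatives of the E2, none passed 0.58 in duper over wild type. In liver against brain Ube2d3 rose on the TMM scale (0.91, adjusted p = 0.000265) but was at -0.33 with library size scaling. Ube2n (-0.90, adjusted p = 0.00031) and Ube2e1 (-0.66, named after its value was seen) fell under both scalings, while Ube2l3, the closest relative of Ube2l6, was at 0.23 (adjusted p = 0.130) with TMM and at -1.01 with library size scaling.

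Of the 4 other HERC genes, Herc1 (-1.29), Herc2 (-0.66) and Herc3 (-3.73) were lower in liver than in brain under each scaling, and Herc4 was higher with TMM (1.55) but not called with library size scaling (0.31) or on log2(TPM + 1) (-0.07). In duper over wild type Herc3 passed 0.58 in liver (0.96) and Herc4 fell below the mirrored limit (-0.69), both named after their values were seen, and none of the 4 did so in brain. The wider set of 10 genes that meet ISG15 or USP18, such as the ligase Arih1 and the proteases Usp5 and Usp14, held 6 genes higher and 2 lower in liver than in brain with TMM, and 4 higher and 5 lower with library size scaling. On these 2 scales Usp5 was at -0.73 and -1.97, Usp14 at 0.03 and -1.21, and Usp16 at 1.10 and -0.15. In duper over wild type 1 of these 10 passed 0.58 in SCN (Itgal, 0.65, a subunit of the receptor of free ISG15), 1 lay below the mirrored limit in cortex (Skp2, -0.73) and none of 9 did so in liver, both named after their values were seen.

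Genes upstream of the members were the type I interferon receptor, its kinases and the factors that act on interferon-stimulated genes. Of 10 such genes, Irf7 was the only one past 0.58 in duper over wild type in each tissue (1.21 in cortex, 1.37 in SCN and 1.02 in liver). Socs1, a feedback inhibitor of the receptor's kinases, was at -2.19, 0.59 and -0.97, and both genes were named after their values were seen. Of the 3 most abundant, Jak1 was at 0.25, 0.04 and -0.09, Irf9 at 0.50, 0.32 and 0.15, and Stat2 at -0.31, 0.36 and 0.02. In liver against brain 8 of the 10 were higher and none was lower with TMM, and 4 were higher and 1 lower with library size scaling. Stat2 (3.40) and Irf9 (2.63) were higher on both scales, and Jak1 (1.32 with TMM) was at 0.08 with library size scaling. Irf7 rose (0.98, adjusted p = 0.0324) and Ifnar1 fell (-0.64) in SCN against cortex, the latter again named after its value was seen.

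Downstream, 11 known targets of ISG15 conjugation held 1 gene past 0.58 in each tissue, the kinase Eif2ak2 in cortex (0.84) and SCN (0.66) and Mx1 in liver (1.01), named after their values were seen. Their medians were 0.05, 0.00 and 0.12. The abundant targets Ube2n, Mapk3 and Jak1 stayed between -0.15 and 0.25 in each tissue. Of 32 other interferon-stimulated genes 27 had a row. At 1 TPM, 10 of 24 passed 0.58 in cortex, 10 of 25 in SCN and 6 of 26 in liver, with medians of 0.35, 0.46 and 0.36. The shares of all genes past 0.58 were 11%, 9.08% and 6.48%. In each tissue 1 listed gene lay below the mirrored limit. It was Zbp1 in cortex (-0.79), Psmb9 in SCN (-0.81) and Oas3 in liver (-1.18), all named after their values were seen. Psmb8, an immunoproteasome subunit, was at 0.78, 1.35 and 0.43, Bst2, which tethers budding virions, at 0.64, 0.18 and -0.02, and B2m, the light chain of MHC class I, at 0.43, 0.22 and 0.07. In liver against brain 24 of the 27 rose and 1 fell (Cmpk2, named after its value was seen) with TMM, 18 rose and 3 fell with library size scaling, and B2m was at 4.64 and 3.39. Of the targets of conjugation, 8 rose and 3 fell with TMM and 1 rose and 3 fell with library size scaling. No gene of any of these lists was called in duper against wild type by edgeR, beside 0.00547% of all genes.

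Most macrophage markers, though not all, were higher in duper beside the members. The summed level of 12 microglia and macrophage markers was 576 TPM in wild-type and 912 in duper liver, 389 and 485 TPM in SCN, and in cortex 333 and 375 TPM. In duper 8 of 12 of these were higher in cortex, 10 of 12 in SCN and 8 of 9 in liver. Their median log2 ratios were 0.21, 0.39 and 0.62, beside 0.03, 0.02 and -0.12 over all genes. Mrc1 was lower in duper in each tissue (-0.18, -0.72 and -0.54) and Tmem119 in cortex (-0.67), both named after their values were seen. The 4 Kupffer cell markers, which mark the resident macrophages of the liver, were all higher in duper liver (284 to 472 TPM in sum), with Marco at 0.73, Cd5l at 0.65 and Clec4f at 0.92. In the brain libraries Kupffer markers summed to at most 1.75 TPM, and Clec4f was at 0 in 3 of the 4. Their part in the member values was not tested.

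Other cell types did not share one direction. The lymphocyte and neutrophil list stood at 39.3 and 12.4 TPM in cortex and at 12.1 and 8.81 TPM in SCN, and at 61.0 and 85.5 TPM in liver. S100a9, a neutrophil gene, made up 34.5 and 6.59 TPM of this in cortex and 6.06 and 1.97 TPM in SCN. Endothelial markers were at 84.2 and 79.3 TPM in liver, 119 and 126 TPM in SCN, and in cortex 138 and 115 TPM. Markers of the choroid plexus and ependyma were at 57.9 and 101 TPM in cortex and 98.2 and 93.5 TPM in SCN. The sum of the 4 erythroid markers was lower in duper in each tissue (9.18 and 3.52 TPM in cortex, 20.4 and 7.59 in SCN, 16.9 and 8.02 in liver). Most of it was Alas2 (6.48 and 2.83 TPM in cortex, 17.4 and 5.50 in SCN, 14.9 and 7.52 in liver). Epb42 was higher in duper in brain (0.42 and 0.69 TPM in cortex, 0.77 and 1.32 in SCN). Both genes were named after their values were seen. Hepatocyte markers in cortex were at 130.0 and 53.4 TPM. The SCN list summed to 93.1 TPM in wild-type and 65.5 in duper SCN, beside the higher levels of Isg15 and Usp18 there, with Nms, at 0 in both cortex libraries, at 33.5 and 13.4 TPM. The part of these in the member values was not tested either.

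The members were covered by 12 transcripts. Isg15, Ube2l6, Trim25 and Usp18 had 1 transcript each, of 678, 703, 5596 and 1776 bases, so that gene and transcript levels are the same value. Uba7 had 5 transcripts, of which that of 3238 bases held 81.8% of the gene's TPM in wild-type and 86.1% in duper liver, 34.1% and 83.0% in SCN, and 58.8% and 77.6% in cortex. Its share was higher in the duper library of each tissue, and the widest gap was in SCN. There the transcript of 2359 bases held 38.5% in wild type and 14.2% in duper, and that of 4225 bases 27.4% and 2.75%. In TPM, the 3238-base transcript stood at 1.59 and 7.35 in SCN, at 2.54 and 5.53 in cortex and at 5.33 and 12.1 in liver. Such shares are estimates from reads that overlapping transcripts have in common, for which no error was available.

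Herc6 had 3 transcripts. Those of 4417 and 4418 bases differ in length by a single base, and their shares ranged from 25.1 to 57.2% and from 0 to 74.9% over the 6 libraries without an order by genotype or tissue. The transcript of 2884 bases held 53.3% in wild-type cortex, where the gene had 33 counts, 16.9% in wild-type SCN, 4.50 and 1.31% in liver, and was at 0 in duper cortex and duper SCN. The level of Herc6 given above is the sum of the 3.

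**Figure D4:**
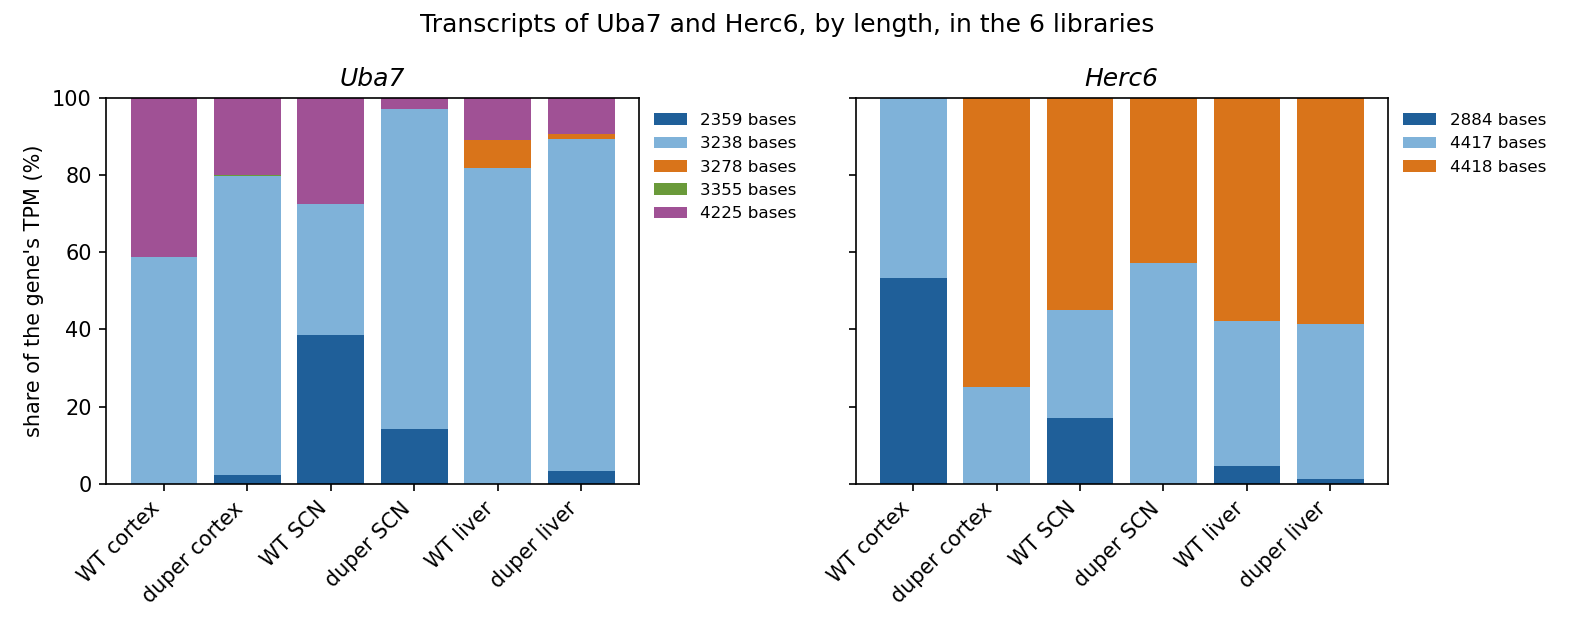
Share of each transcript, named by its length, in the TPM of Uba7 and of Herc6 in the 6 libraries (WT, wild type). Each bar is 1 library and sums to 100%. The 3238-base transcript of Uba7 ran from 34.1% in wild-type SCN to 86.1% in duper liver, and the 2 near-identical lengths of Herc6 held changing shares.

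The genes whose levels were most like those of Isg15 and Uba7 over the 6 libraries were found by Pearson's r of log2(TPM + 1) among the 18558 genes whose mean reached 1 TPM. These values describe 6 libraries that share tissues and hamsters, and carry no p. For Isg15 the 5 highest were LOC101835628 (r = 0.984), LOC121134231 (0.966), LOC121133964 (0.960), LOC121137920 (0.958) and LOC121136085 (0.946), loci without a symbol in the tables. For Uba7 they were Ssr3 (0.985), a subunit of the translocon-associated complex, Itgam (0.976), the integrin chain CD11b of myeloid cells and a member of the macrophage list, LOC101835167 (0.960), LOC121133964 (0.959) and LOC121134329 (0.949). LOC121133964 was common to both and was measured at 3.71 and 9.98 TPM in liver, 2.53 and 7.48 TPM in SCN, and in cortex 1.55 and 3.36 TPM, wild type first.

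Between the members themselves the closest pairs were Ube2l6 with Usp18 (r = 0.963) and Isg15 with Uba7 (r = 0.934). Trim25 was close to Usp18 (0.888) and Ube2l6 (0.881). Herc6 had negative values with Trim25 (-0.61), Ube2l6 (-0.42) and Usp18 (-0.31). The 2 close pairs correspond to the levels above, with Ube2l6 and Usp18 high in liver and in SCN higher in duper, and Isg15 and Uba7 ordered by genotype first.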

How the data were processed

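RNA-seq of 6 libraries, 1 per genotype and tissue, was analysed from gene tables of estimated counts and TPM. The authors made them with Kallisto against the hamster reference MesAur2.0 and summed transcripts to genes with tximport, from libraries of the TruSeq Stranded mRNA kit read as paired ends, and the Kallisto version was not given in the sources used here. The deposited estimated counts were rounded to whole numbers for the count tests, and the deposited TPM, normalized by transcript length and library total, gave the levels. Deposited transcript tables gave the isoform shares.

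The members and gene lists were chosen with earlier results of these data known. For duper over wild type within a tissue the log2 ratio of TPM was taken without a pseudocount, with a 95% Clopper-Pearson interval of the counts. Across tissues edgeR 4.0.16 (quasi-likelihood, TMM, R 4.3.3) was fitted with tissue and genotype terms to all genes past filterByExpr, which all 6 members passed, by genotype for the genotype contrast and by tissue for the tissue contrasts. Calls needed an adjusted p below 0.05 (Benjamini-Hochberg, over all genes tested) and a log2 fold change beyond 0.58 in either direction. The fit of liver against brain was tested on simulated data of 19780 genes. It called 61 of 100 genes set to differ 2-fold and 86 of 100 set to differ 4-fold. It also called 20 genes set not to differ. All genes not set to differ had the same mean in every library, so the shift in composition between liver and brain was not simulated. In the real contrast 6644 genes were called higher and 6445 lower, so these rates do not carry over to it. P-values rest on how far the 6 libraries, each of 4 hamsters, departed from the sum of the tissue and genotype terms. They do not measure the spread between single hamsters, nor between replicate libraries, of which there were none. Alternatives were DESeq2 1.42.0, limma 3.58.1 on log2(TPM + 1) and log2(TPM + 0.1), library size scaling, other filters, counts thinned to the shallowest library and leaving out each library or tissue.

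All 7 listed genes are named. Of each list at most the 3 genes of highest mean TPM are named, with genes named after their values were seen marked as such, and for Isg15 and Uba7 the 5 genes of highest correlation. Gene symbols were matched in RefSeq for all 6 members. Promoter and protein sequences were not analysed here. RefSeq gave no chromosome for these loci, so no coordinates are given.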

Additional observations from a re-analysis of the deposited data

Results flagged for a closer look

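Of the 6 members, 4 had duper over wild-type ratios of opposite sign in different tissues. With 1 library per genotype and tissue the difference between tissues was not tested. For Ube2l6 the highest (SCN) and lowest (cortex) log2 ratio lay 4.38 apart, with 4 counts and 1 count behind the cortex ratio, and the intervals of the 2 ratios, 0.71 to 2.78 in SCN and -8.24 to 0.72 in cortex, overlapped. For Usp18 the SCN and cortex ratios lay 1.96 apart, for Herc6 the liver and cortex ratios 0.874, and for Trim25 the SCN and liver ratios 0.475. The cortex intervals of Usp18 (-1.63 to 1.55) and Herc6 (-0.71 to 0.59) covered both signs, as did that of Ube2l6. The counts thus did not settle the sign of these 3 genes in cortex. In liver and SCN the Trim25 intervals, -0.28 to -0.21 and -0.05 to 0.51, did not overlap, and the liver ratio was -0.06 with TMM scaling.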

How the results depend on the processing

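Of the member values in liver against brain, 90 kept their direction and their side of the threshold, 1 lost its call (Herc6 with library size scaling) and 2 turned sign (Herc6, -0.27 on log2(TPM + 1) and -0.38 on log2(TPM + 0.1)). With at least 10 counts in every library 3 of 6 members were tested, and all 3 were called higher, beside 4710 of all 13593 genes tested. Genes called higher and lower were 3108 and 11470 with library size scaling, 2614 and 12647 on log2(TPM + 1), and 2628 and 12972 on log2(TPM + 0.1).

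In SCN against cortex no alternative called a member, and 4 values near 0 turned sign: Uba7 at -0.24 in thinned counts and from -0.20 to 0.30 with a library left out, and Herc6 at 0.044 with library size scaling and from -0.38 to 0.14 with a library left out. Genes called higher were 1426 with library size scaling, 1491 by the likelihood ratio test and 76 to 1627 with a library left out, where genes called lower were 280 to 1999.

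For duper against wild type, members called were 1 by DESeq2 and 2 by the likelihood ratio test, each over 18275 genes tested. Genes called higher and lower were 26 and 16 by DESeq2, 54 and 37 by the likelihood ratio test, 19 and 29 with at least 1 count in total, 4 and 11 with the filter by tissue, 3 and 3 in thinned counts, 11 and 23 without SCN, and 10 and 12 without liver. On log2(TPM + 1) 1 was called higher, without the tissue term 0 were called lower and without cortex 2 were. With a library left out 0 to 18 were called higher and 0 to 24 lower. Trim25 turned to -0.0031 with library size scaling, -0.042 without the tissue term and -0.026 without SCN, and ran from -0.0076 to 0.16 with a library left out.

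Within a tissue no ratio turned sign among those whose counting interval excluded equal levels. For the other ratios a turn of sign was not counted. By this rule 64 values stayed within the interval of the main ratio and 8 liver ratios moved out of it. With TMM-scaled counts Uba7 was at 1.27, Ube2l6 at 0.91, Usp18 at 1.18 and Trim25 at -0.06. The TMM factors in liver were 0.596 in wild type and 0.532 in duper, and dividing by them raises every liver ratio alike. Other sources of these changes were not tested. The labels give no replicate numbers to pair samples by, and the tissue and genotype terms set libraries of 1 tissue or genotype against each other. Brain depth limits Isg15, Ube2l6 and Usp18, which had 1 to 38 counts there.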
